A study of Mus musculus with 9 samples.

Results

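Liver macrophages of mice on a high-fat diet (HFD) were compared after treatment with diphenyleneiodonium (DPI) or its vehicle, and all genes with enough reads were described. The comparison uses 7 of the 9 libraries of the series, 3 from vehicle-treated mice (vehicle 1 to 3) and 4 from DPI-treated mice (DPI 1 to 4), chosen by the treatment in the sample labels. Of the 23413 genes in the count table, 10431 had enough counts in these libraries to be tested. All 7 libraries come from male B6 mice that received HFD from 5 weeks of age for 8 weeks. DPI at 2 mg/kg, or PEG3000 as vehicle, was given intraperitoneally from week 3, with 5 days between injections and 6 doses altogether, as the study describes. The protocol field of the labels gives 500 nM for 24 h instead. Cells were sorted as F4/80+CD11b+Gr1low by the methods, so a library holds a gate and not a single cell type. The other libraries, from mice on a normal diet, enter no value below except where a fit of 3 groups is named.

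Macrophages of the liver take up lipid, debris and microbial products from the blood. Resident Kupffer cells (KCs) carry markers such as Clec4f, Timd4 and Vsig4, whereas monocytes that enter the tissue carry Ly6c2 and Ccr2. When a macrophage is stimulated, immediate early transcription factors of the EGR, FOS and NR4A families are induced first, followed by NF-kappaB targets, chemokines and cytokines. DPI blocks flavoenzymes such as the NADPH oxidases, and the study used it as an agonist of GPR3, a receptor that raises cAMP and recruits β-arrestin2.

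Library totals lay between 3534325 (DPI 2) and 15585775 (DPI 1) counts, and the ribosomal RNA precursor Rn45s took 27% to 44.5% of them. Levels are given in CPM, counts scaled for library size and composition by TMM, and 3 counts, the floor used here, were worth 0.176 to 0.972 CPM. DPI 1 and DPI 2 stood apart from the other 5 libraries on the first principal component, which held 25% of the variance, at 59.7 and 58.2 against -57 to 2.54. The neutrophil gene S100a8 was at 151 and 180 CPM in DPI 1 and DPI 2 and at 888 to 1796 CPM in the others. Values without these 2 libraries are therefore given beside many results. Vehicle 2 was closer in rank correlation to DPI 3 (0.889) than to vehicle 1 (0.852) or vehicle 3 (0.867).

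The labels call the cells Kupffer cells, and several genes restricted to KCs were at or near 0, while general macrophage genes were high. Csf1r, the receptor for the growth factor of macrophages, was at 434 to 560 CPM, Lyz2 at 13617 to 41161 CPM and Emr1, the gene of F4/80, at 53.4 to 136 CPM. The KC genes Timd4, Marco, Vsig4 and Folr2 did not exceed 4.29 CPM in any library, and Clec4f was at 9.08, 0 and 0 CPM with vehicle and at 12.9, 1.94, 0.712 and 0.579 CPM with DPI. The monocyte genes Ly6c2 and Plac8 were abundant, at 573 to 1430 CPM and 1258 to 2178 CPM. Id3, a further gene of the KC list that other cells also express, was at 186 to 893 CPM. The study describes the cells of this gate as mostly KCs, and they are called sorted liver macrophages here. In bulk libraries fewer cells of a type and less RNA per cell cannot be told apart. The summed endothelial markers were at 283 and 138 CPM in DPI 1 and DPI 2 and at 18.5 to 53.2 CPM in the others, and the summed neutrophil markers at 1346 and 1079 CPM against 2735 to 5744 CPM. The part of these cells in the results below was not tested.

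**Figure D1:**
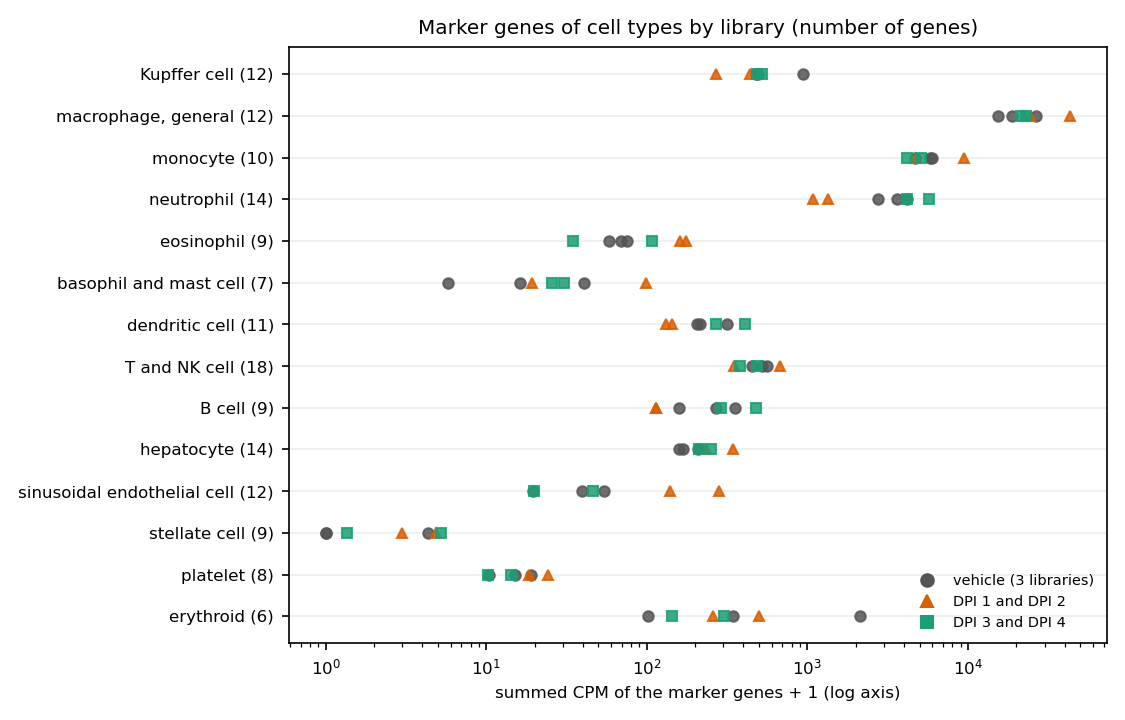
Summed CPM of marker genes of each of 14 lists (horizontal log axis), with 1 point per library; grey circles are the 3 vehicle libraries, orange triangles DPI 1 and DPI 2, green squares DPI 3 and DPI 4. DPI 1 and DPI 2 lie below the other libraries for neutrophil markers (1346 and 1079 CPM) and above them for endothelial markers (283 and 138 CPM).

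At the threshold of the study, an unadjusted p under 0.05 and a difference of at least 2-fold, 155 genes (1.49% of those tested) were higher with DPI and 239 (2.29%) lower. The quasi-likelihood test of edgeR gave 0 genes (0%) with an adjusted p under 0.05 after Benjamini-Hochberg adjustment, the smallest being 0.777. An unadjusted p under 0.05 was found for 612 genes (5.87%), where 522 would be expected without any difference. Adjusted calls numbered 7 with DESeq2, 10 with edgeR's likelihood ratio test and 5 with its exact test, and Cd72, Tspyl3, Il1rn and Cx3cl1 were called by all 3 of these tools. The genes past the threshold in the higher direction were the less abundant ones, with a median level of 8.14 CPM against 16.8 CPM for those in the lower direction and 14.5 CPM for all genes tested. Of the 155, 49 had a library at 0 counts and 94 (0.901% of all genes tested) had groups that did not overlap, which held for 324 genes (3.11%) in this direction whatever their p. Among the 239, the groups did not overlap for 97 (0.93%), and for 306 genes (2.93%) in that direction whatever their p. The median log2 ratio, DPI over vehicle, of all genes was 0.01, and 50.4% of them had a ratio above 0.

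The balance of the directions moved with the scaling and with single libraries. With library size alone in place of TMM, which moved the median log2 ratio of all genes to 0.11, 209 genes were higher and 140 lower. Without vehicle 1 the numbers were 185 higher and 133 lower, and without vehicle 3 they were 193 and 141. Leaving out vehicle 2 gave 345 and 436, leaving out DPI 1 gave 95 and 212, and leaving out DPI 4 gave 190 and 394. The numbers with an unadjusted p under 0.05 were 372 without vehicle 1, 1039 without vehicle 2 and 384 without vehicle 3. Without DPI 1, DPI 2, DPI 3 and DPI 4 they were 425, 462, 514 and 865. The list counts given below for fits without 1 library are to be read beside these, not beside the shares from all 7 libraries. Without both DPI 1 and DPI 2, 109 genes were higher and 292 lower. The labels number the libraries by mouse, but the study states other group sizes in mice, so whether a library is 1 mouse is uncertain, n counts libraries, and p measures the spread between them.

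**Figure D2:**
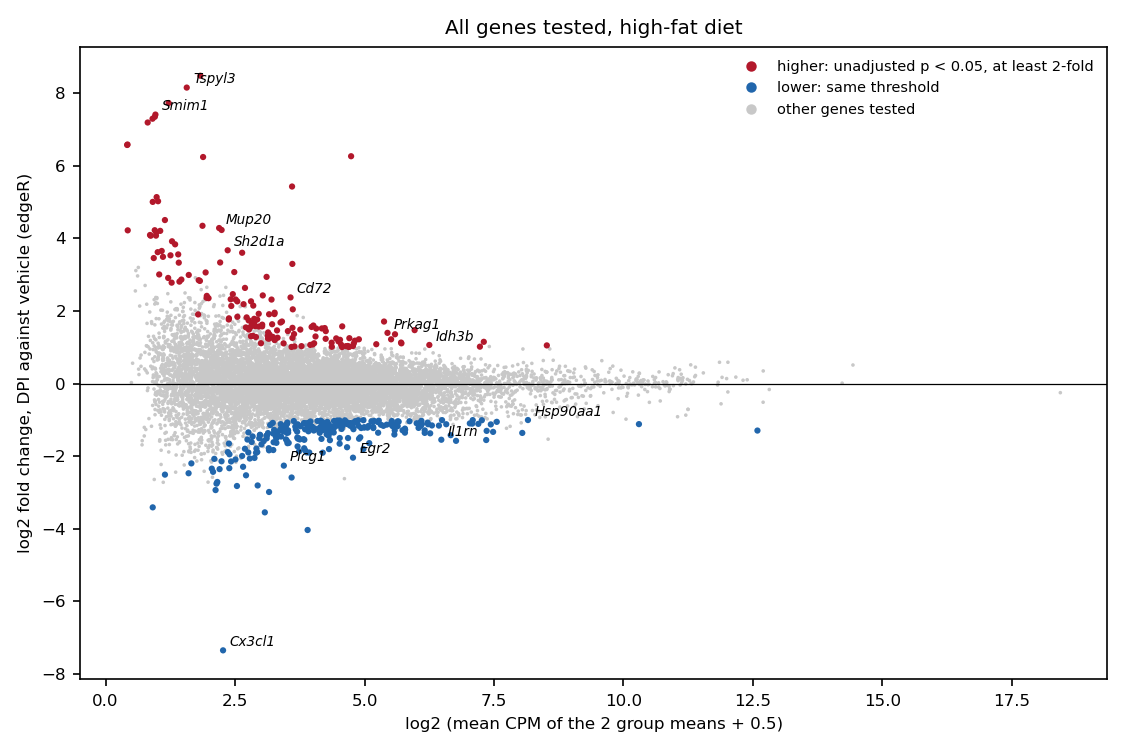
Log2 fold change of DPI against vehicle from edgeR (vertical axis) by the log2 of the mean of the 2 group means of CPM plus 0.5 (horizontal axis), 1 point per gene; red and blue mark the 155 genes higher and the 239 lower at the threshold, grey the other genes tested. Fold changes over 7 in size belong to genes at or near 0 counts in a whole group and depend on the prior count.

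Among the genes that were higher with DPI and whose groups did not overlap, the smallest p belonged to Cd72, which encodes an inhibitory receptor of B cells that binds CD100 (chr4:43446462-43454628, position from GENCODE on GRCm38, as below). Its level was 5.84, 3 and 2.17 CPM in vehicle 1, 2 and 3 and 21.3, 24.3, 11.9 and 18.9 CPM in DPI 1, 2, 3 and 4. Every DPI library was above every vehicle library, with a log2 ratio of DPI to vehicle of 2.37 (standard error, SE, 0.52, unadjusted p = 0.000425, adjusted p = 0.777 from edgeR). Summed B cell markers were at 158 to 355 CPM with vehicle and at 112 to 479 CPM with DPI, and 2 of the DPI libraries were the lowest of all 7, at 113 and 112 CPM.

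Prkag1 (chr15:98812797-98831521), which encodes a regulatory gamma subunit of AMP-activated protein kinase (AMPK), the energy sensor of the cell, was also among the higher genes. It was at 19.2, 25.6 and 26.3 CPM with vehicle and at 68.8, 44.7, 66.4 and 69.4 CPM with DPI. The means were 23.7 ± 3.89 CPM (SD, n = 3) and 62.3 ± 11.8 CPM (SD, n = 4). The log2 ratio was 1.40 (SE 0.31, unadjusted p = 0.000447, adjusted p = 0.777 from edgeR), and it was 1.52 without DPI 1 and DPI 2. It was the 1 of 10 tested AMPK genes with an unadjusted p under 0.05 (2.14% of all genes tested were higher and 3.73% lower), and 1 member was lower without vehicle 2, without DPI 4, and without DPI 1 and DPI 2. Prkaa1, the catalytic alpha subunit, had a log2 ratio of -0.81 (SE 0.40, unadjusted p = 0.0613 from edgeR).

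Tspyl3, a gene of the TSPY-like family, was not counted in any vehicle library and was at 5.29, 6.16, 6.23 and 2.03 CPM in the DPI libraries, at least 7.77-fold above the mean floor of 3 counts per vehicle library. Smim1, which encodes a small membrane protein of red cells that carries the Vel blood group, was likewise at 0 with vehicle and at 1.88, 1.62, 2.49 and 5.6 CPM with DPI, at least 4.57-fold higher. These are genes of low count, and the bounds cover counting error only. Mup20, a major urinary protein that hepatocytes secrete, was at 0, 1.06 and 0 CPM with vehicle and at 7.76, 9.07, 9.8 and 4.54 CPM with DPI. Alb, the most used hepatocyte marker, was at 21.2, 5.29 and 9.41 CPM with vehicle and at 18.8, 30.1, 11.4 and 16.1 CPM with DPI, so its groups overlapped. The summed markers of hepatocytes, Mup20 included, were at 209, 167 and 159 CPM against 343, 233, 211 and 249 CPM. They did not overlap only through Mup20, which was chosen for its own separation. DPI 3 (211 CPM) exceeded vehicle 1 (209 CPM) by less than its 9.8 CPM of Mup20. Of the 9 tested, 7 had a log2 ratio above 0, with a median of 0.52, and Mup20 was the 1 with an unadjusted p under 0.05 (2.14% of all genes tested were higher), where 3 were without vehicle 1 and 2 without DPI 2. The part of hepatocyte RNA in the Mup20 result was not tested.

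Creld2, an endoplasmic reticulum chaperone, was at 8.65, 10.2 and 9.41 CPM with vehicle and at 41.7, 22.4, 22.8 and 21.7 CPM with DPI, a log2 ratio of 1.53 (SE 0.40). Vkorc1, the vitamin K epoxide reductase that warfarin blocks, was at 8.22, 5.12 and 9.89 CPM against 26.2, 27.9, 17.5 and 19.6 CPM, a log2 ratio of 1.56 (SE 0.42). Idh3b, a subunit of the NAD-dependent isocitrate dehydrogenase of the citric acid cycle, was at 38.3, 63.3 and 45.1 CPM against 101, 126, 103 and 80.5 CPM. In all 3 the lowest DPI library was above the highest vehicle library, and the log2 ratio of Idh3b was 1.06 (SE 0.29).

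The remaining genes named in this direction were Gtpbp2, a GTP-binding protein that acts on stalled ribosomes, Fam160b1, Cxxc1 and Sh2d1a. Gtpbp2 was at 0.216, 1.59 and 3.86 CPM with vehicle and at 16.9, 14.3, 11.6 and 14.8 CPM with DPI. Fam160b1 was at 1.51, 0.529 and 1.21 CPM against 11, 10.7, 4.45 and 10.3 CPM, with a log2 ratio of 3.07 (SE 0.75). Cxxc1, which binds unmethylated CpG and belongs to a histone H3K4 methyltransferase complex, was at 10.2, 7.41 and 7.72 CPM against 27, 21.7, 27.2 and 20.5 CPM. The log2 ratios were 2.94 (SE 0.71) for Gtpbp2 and 1.52 (SE 0.39) for Cxxc1. Sh2d1a, the adaptor SAP of T and NK cells, was at 0, 1.41 and 0.483 CPM against 2.53, 14.9, 9.62 and 7.43 CPM, whereas summed T and NK cell markers overlapped between the groups (449 to 563 CPM with vehicle and 346 to 673 CPM with DPI). Of the 12 genes in this direction, 11 kept an unadjusted p under 0.05 in all 7 fits without 1 library. All 12 were chosen by their p in these same libraries, so this is no further support. Smim1 had enough counts only through the DPI libraries and was not tested without DPI 1, DPI 3 or DPI 4, so its other fits are no support. Tspyl3, Mup20, Sh2d1a and Fam160b1 were under 10 counts in every vehicle library, and Gtpbp2 in vehicle 1 and vehicle 2. These genes too were tested only through the DPI libraries.

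**Figure D3:**
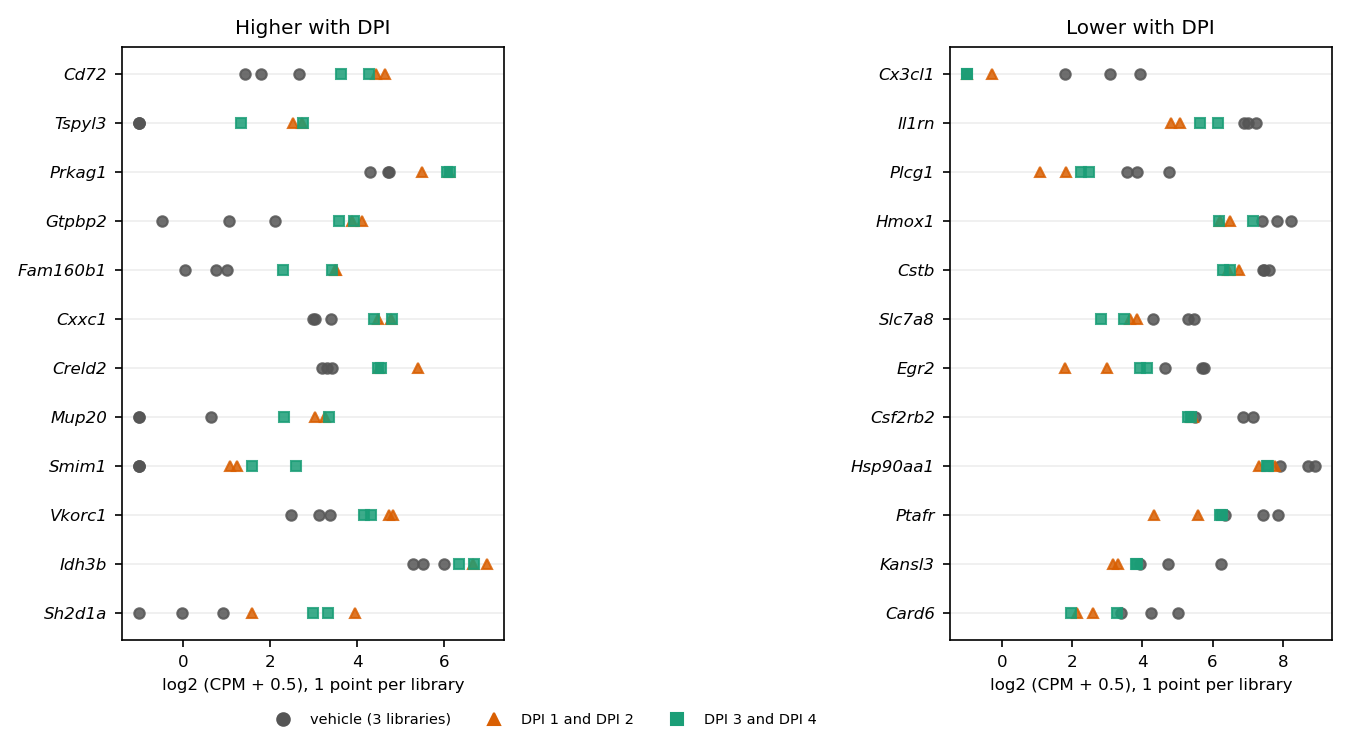
Log2 of CPM plus 0.5 (horizontal axis, 1 point per library) for the 12 genes of smallest p in each direction whose groups did not overlap; grey circles are vehicle libraries, orange triangles DPI 1 and DPI 2, green squares DPI 3 and DPI 4. The groups are apart by the rule that chose the genes, by a wide margin for Cd72 and Prkag1 and by a narrow one for Csf2rb2 (43.1 CPM in the highest DPI library and 44.3 CPM in the lowest vehicle library).

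Of the genes that were lower with DPI, Cx3cl1 (chr8:94772009-94782427), the chemokine fractalkine, had the smallest p of all genes. It had 68, 17 and 33 counts in the vehicle libraries (14.7, 3 and 7.96 CPM) and 0, 1, 0 and 0 counts in the DPI libraries. The ratio of the pooled rates, vehicle over DPI, was 295, with an exact 95% interval of 51.9 to 11744 that covers counting error only. All vehicle libraries lay above all DPI libraries.

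Il1rn (chr2:24336853-24351494), which encodes the interleukin-1 receptor antagonist, was at 150, 119 and 129 CPM with vehicle and at 27.4, 33.4, 49.3 and 71.1 CPM with DPI. Every DPI library was below every vehicle library, and DPI 1 and DPI 2 were the lowest. The means were 133 ± 15.9 CPM (SD, n = 3) and 45.3 ± 19.6 CPM (SD, n = 4). The log2 ratio was -1.55 (SE 0.33, unadjusted p = 0.000366, adjusted p = 0.777 from edgeR) and -1.14 without DPI 1 and DPI 2 (unadjusted p = 0.00423).

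Hmox1 (chr8:75093621-75100589), the heme oxygenase that NRF2 induces, was at 302, 170 and 226 CPM with vehicle and at 73.3, 90.1, 143 and 71.8 CPM with DPI, a log2 ratio of -1.30 (SE 0.31). It was the only one of 26 tested NRF2 targets and antioxidant genes with an unadjusted p under 0.05 (3.73% of all genes tested were lower), and the median log2 ratio of that list was -0.09 (0.01 for all genes). The number lower was 2 without vehicle 1 or vehicle 2, 3 without DPI 1 and 4 without DPI 4. Cstb, which encodes the cathepsin inhibitor cystatin B, was at 178, 193 and 172 CPM with vehicle and at 86.4, 106, 89.9 and 78.5 CPM with DPI. Its log2 ratio was -1.01 (SE 0.25).

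Plcg1, the phospholipase C of tyrosine kinase receptors, was at 26.4, 13.9 and 11.3 CPM with vehicle and at 3.06, 1.62, 4.27 and 5.12 CPM with DPI, a log2 ratio of -2.26 (SE 0.54). Ptafr, the receptor for platelet-activating factor, was at 233, 81.5 and 173 CPM against 19.7, 47.3, 74.3 and 76.6 CPM. Csf2rb2, the mouse IL-3 receptor beta chain, was at 116, 44.3 and 142 CPM against 41.6, 43.1, 39.2 and 41.3 CPM. For Ptafr and Csf2rb2 the margin between the groups came from vehicle 2, the lowest vehicle library in each. Their log2 ratios were -1.58 (SE 0.44) and -1.29 (SE 0.35), and Csf2rb2 is close in sequence to Csf2rb, so reads of the pair may have been divided in counting.

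Slc7a8, an exchanger of neutral amino acids, was at 44.1, 19.1 and 39.1 CPM with vehicle and at 13.8, 12, 6.59 and 10.7 CPM with DPI. Card6, a CARD-domain protein, was at 18.4, 10.1 and 32.1 CPM against 3.94, 5.51, 3.38 and 9.17 CPM. Kansl3, a subunit of the NSL histone acetyltransferase complex, was at 74.6, 14.6 and 25.8 CPM against 9.4, 8.42, 13.5 and 13.9 CPM. Kansl3 was the only one of the 12 genes in this direction to lose an unadjusted p under 0.05 when 1 library, vehicle 1, was left out. As these 12 were chosen by their p in the same libraries, such fits are no further support. The log2 ratios of Slc7a8, Card6 and Kansl3 were -1.65, -1.86 and -1.75, with SEs of 0.41, 0.53 and 0.49.

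Of 29 tested immediate early genes, 28 had a negative log2 ratio, with a median of -0.53 against 0.01 for all genes. An unadjusted p under 0.05 was found for 8 of the 29 in the lower direction and for 0 in the higher one (3.73% and 2.14% of all genes tested). The mean log2 CPM of the list was 6.98, 7.48 and 7.15 with vehicle and 5.91, 5.74, 6.61 and 7.24 with DPI, so DPI 4 was within the range of the vehicle libraries and DPI 3 was below it. Without DPI 1 and DPI 2 the median was -0.16, and 4 members had an unadjusted p under 0.05. The number in the lower direction was 16 without DPI 4 and 5 without vehicle 3. The number over all genes, in either direction, moved the same way, with 865 of 10091 without DPI 4 and 384 of 10996 without vehicle 3.

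Egr2 (chr10:67535475-67542188), a zinc finger transcription factor, had the largest log2 ratio in size of the list's genes. It was at 53.8, 24.5 and 51.6 CPM with vehicle and at 2.94, 7.45, 14.8 and 16.9 CPM with DPI, a log2 ratio of -2.04 (SE 0.52, unadjusted p = 0.00161, adjusted p = 0.826 from edgeR). The groups did not overlap, and without DPI 1 and DPI 2 the log2 ratio was -1.45 (unadjusted p = 0.00661). Egr1, of the same family, was at 289, 144 and 333 CPM with vehicle and 95.3, 70.3, 90.8 and 149 CPM with DPI, so DPI 4 was level with vehicle 2. Fosb, a partner of JUN in the AP-1 factor, was at 67.9, 111 and 81.6 CPM against 42.5, 32.7, 23.9 and 63.4 CPM, with no overlap. The log2 ratios of Egr1 and Fosb were -1.33 (SE 0.34) and -1.09 (SE 0.34).

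The other members with an unadjusted p under 0.05 were the nuclear receptors Nr4a3 (log2 ratio -1.56) and Nr4a1 (-1.12), the mRNA decay factor Zfp36 (-0.87), Atf3 (-0.91) and the MAP kinase phosphatase Dusp1 (-0.91). Without DPI 1 and DPI 2, Egr1, Egr2, Fosb and Jun had an unadjusted p under 0.05, and these 5 did not. Fos itself had a log2 ratio of -0.48 (SE 0.28) and Junb of -0.10 (SE 0.34) from edgeR. Jun was at -0.51 (SE 0.25, unadjusted p = 0.0616 from edgeR).

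The promoters of 24 of the 29 genes were found in RefSeq (GRCm38.p6), and the 250 bases before each start site were searched on both strands. The CArG box, which serum response factor binds, was found in 3 of the 24 (12.5%), against 1.47% of all promoters in the table. A perfect cAMP response element, TGACGTCA, was found in 3 (12.5%) against 1.55%, the E-box CACGTG in 6 (25%) against 6.02%, and an NF-kappaB site in 5 (20.8%) against 3.9%. Per gene tested, of which 7826 were matched, the shares were 1.33%, 3.05%, 10.2% and 5.41% in the same order. A match is a description of these letters and not of binding. The cAMP response element was found in 0 of 9 matched promoters of the 12 higher genes named above and in 0 of 8 of the 12 lower ones. The 2 promoters shown are those of the list's lower genes Egr2, at a start site inside the gene, and Fosb, whose groups did not overlap, with the CArG box of Egr2 (chr10:67537619-67537868, plus strand, first base 72 bases before the start) and the NF-kappaB site of Fosb (chr7:19310046-19310295, minus strand, first base 188 bases before the start) in capitals.

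Egr2: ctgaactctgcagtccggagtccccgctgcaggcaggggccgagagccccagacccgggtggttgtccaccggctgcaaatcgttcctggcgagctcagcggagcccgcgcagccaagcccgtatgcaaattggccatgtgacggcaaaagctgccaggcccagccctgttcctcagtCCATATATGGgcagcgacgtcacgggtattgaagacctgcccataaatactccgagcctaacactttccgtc
Fosb: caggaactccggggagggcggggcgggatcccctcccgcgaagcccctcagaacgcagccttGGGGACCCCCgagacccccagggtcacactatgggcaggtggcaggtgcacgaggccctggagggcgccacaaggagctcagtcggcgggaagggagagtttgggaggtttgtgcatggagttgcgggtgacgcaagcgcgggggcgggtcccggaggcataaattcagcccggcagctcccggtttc

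**Figure D4:**
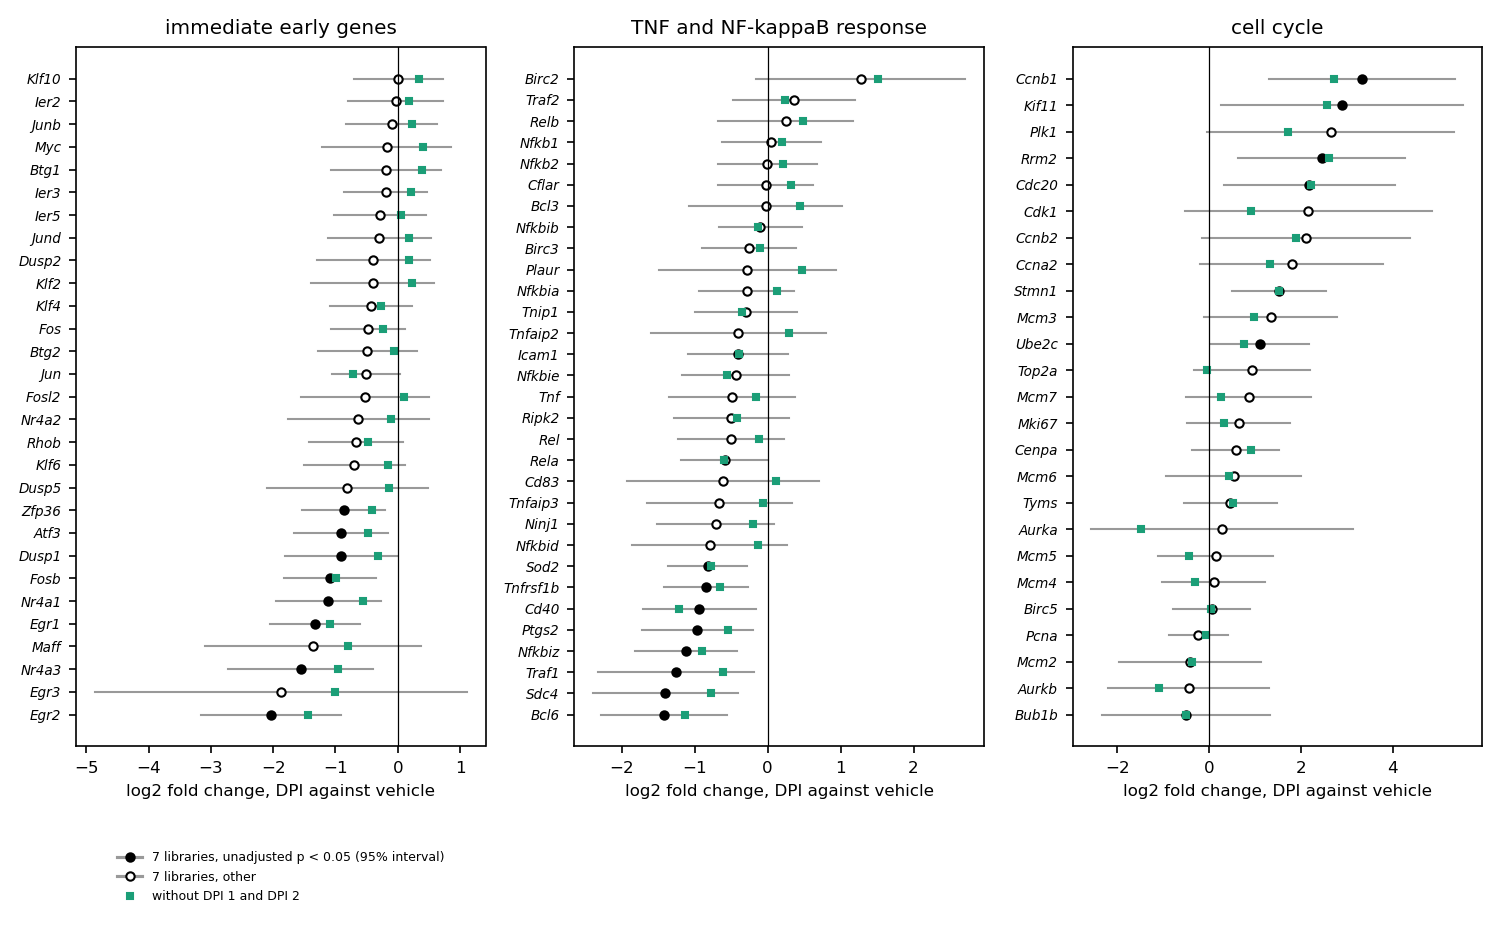
Log2 fold change of DPI against vehicle from edgeR for each tested gene of 3 lists, with 95% intervals from all 7 libraries (circles, filled where the unadjusted p was under 0.05) and the value without DPI 1 and DPI 2 (green squares). Of the immediate early genes 28 of 29 lie below 0 with all libraries, and many squares lie nearer to 0; for the cell cycle list 21 of 25 lie above 0.

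Genes of the TNF and NF-kappaB response had a like pattern. Of 31 tested, 27 had a negative log2 ratio, the median was -0.49, and 8 had an unadjusted p under 0.05 in the lower direction and 0 in the higher one (3.73% and 2.14% of all genes tested). The mean log2 CPM of the list was 5.96, 6.05 and 6.15 with vehicle and 5.16, 5.1, 5.72 and 6.06 with DPI. Here too DPI 4 was level with the vehicle libraries, and without DPI 1 and DPI 2 the median was -0.13 with 4 members past the unadjusted p. Without DPI 4 the number was 15, and without vehicle 3 it was 5.

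Bcl6, a transcriptional repressor, was at 176, 51.7 and 214 CPM with vehicle and at 39.7, 45.4, 65.5 and 68.7 CPM with DPI, a log2 ratio of -1.42 (SE 0.40). Nfkbiz, the nuclear inhibitor IκBζ that many secondary NF-kappaB targets need, was at 281, 150 and 281 CPM against 89.2, 91, 85 and 170 CPM, a log2 ratio of -1.12 (SE 0.33). In these 2 genes vehicle 2 was within the range of the DPI libraries. Sod2, the mitochondrial superoxide dismutase, was at 174, 212 and 234 CPM against 105, 122, 136 and 105 CPM, with no overlap, and its log2 ratio was -0.82 (SE 0.25), or -0.78 without DPI 1 and DPI 2.

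The chemokine list had a mean log2 CPM of 5.24, 5.11 and 5.15 with vehicle and of 4.21, 4.36, 4.9 and 4.72 with DPI, so on this scale all 4 DPI libraries were below the vehicle libraries. The summed CPM, which the abundant members set, overlapped, with DPI 3 (4165 CPM) and DPI 4 (3979 CPM) above vehicle 1 (3840 CPM). Of the 21 tested genes, 17 had a negative log2 ratio and the median was -0.55, or -0.33 without DPI 1 and DPI 2, with 3 lower. An unadjusted p under 0.05 was found for Cx3cl1, Ccl24, Ccl4, Cxcl9 and Cxcl16, all lower (3.73% of all genes tested), a number that was 3 without vehicle 1, 3 without vehicle 3 and 8 without DPI 3. Ccl4, a chemokine that activated macrophages secrete, was at 497, 430 and 481 CPM with vehicle and at 126, 189, 393 and 288 CPM with DPI, a log2 ratio of -0.92 (SE 0.33). Ccl24, which attracts eosinophils, was at 27.5, 16.4 and 23.2 CPM against 7.05, 10.7, 6.06 and 14.2 CPM, a log2 ratio of -1.23 (SE 0.43). Neither group pair overlapped, although without DPI 1 and DPI 2 the log2 ratio of Ccl4 was -0.46 and the unadjusted p values from edgeR were 0.128 for Ccl4 and 0.0514 for Ccl24. Ccl9 was at 421, 574 and 480 CPM against 669, 384, 566 and 396 CPM, and Pf4 at 11, 3.35 and 0 CPM against 15.5, 10.4, 6.41 and 2.7 CPM, with overlapping groups in each.

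Among the 19 tested cytokine genes, Il1rn and Tgfb1 had an unadjusted p under 0.05, both in the lower direction (3.73% of all genes tested), and the list's median was -0.20. Tgfb1 was at 22.3, 8.64 and 13.5 CPM with vehicle and at 4.58, 7.78, 6.59 and 8.49 CPM with DPI, and it kept an unadjusted p under 0.05 in 2 of 7 fits without 1 library (those without vehicle 2 and DPI 4). Il1b was at 698, 1229 and 711 CPM with vehicle and at 188, 160, 598 and 1358 CPM with DPI. In DPI 1 and DPI 2 it was far below the vehicle libraries, whereas DPI 4 was above all of them, and the log2 ratio of -0.61 (SE 0.57) was 0.15 without those 2 libraries. Tnf was at 36.8, 34 and 58.6 CPM against 33.3, 11.7, 33.7 and 43.2 CPM, a log2 ratio of -0.49 (SE 0.40). Il6 was at 3.46, 3.53 and 3.62 CPM against 0.353, 2.92, 15.9 and 6.76 CPM, with DPI libraries on either side of the vehicle range. Its log2 ratio was 0.86 (SE 0.95), and 1.67 without DPI 1 and DPI 2 (unadjusted p = 0.0415 from edgeR).

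**Figure D5:**
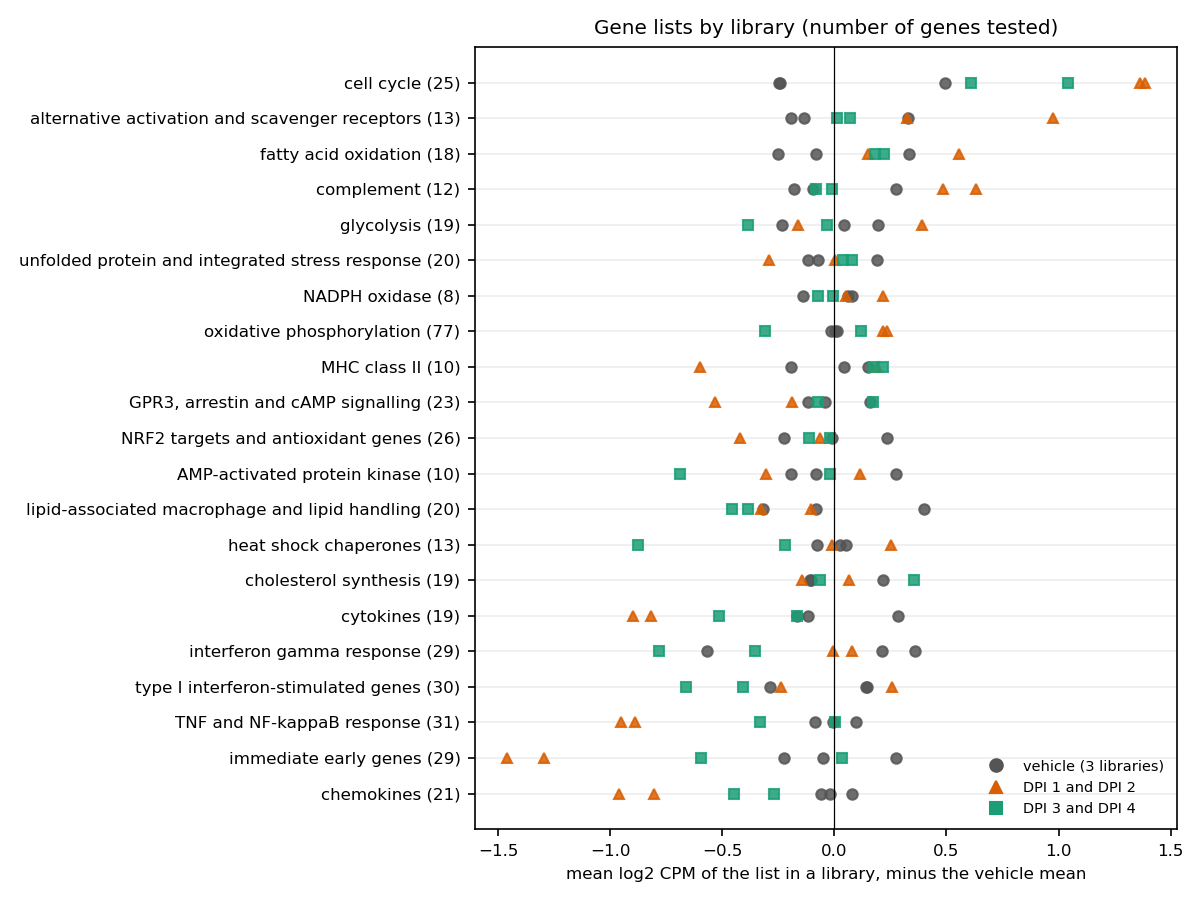
Mean log2 CPM of the tested genes of each of 21 pathway lists in a library, minus the mean of the 3 vehicle libraries (horizontal axis), 1 point per library, lists ordered by their median log2 ratio. In the cell cycle list all 4 DPI libraries lie above the vehicle libraries and in the chemokine list all 4 lie below them, while in the immediate early list DPI 4 lies among the vehicle libraries.

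Of 29 tested genes of the interferon gamma response, 20 had a negative log2 ratio, the median was -0.21, and 5 had an unadjusted p under 0.05, all lower (3.73% of all genes tested were lower). The median was -0.53 without DPI 1 and DPI 2, with 3 members lower. The number with all 7 libraries became 0 without vehicle 3, 2 without vehicle 1 and 3 without DPI 1 or without DPI 4. Irgm2, an immunity-related GTPase, was at 58.6, 36.5 and 71.7 CPM with vehicle and at 31.9, 35.3, 27.8 and 26.6 CPM with DPI, a log2 ratio of -0.87 (SE 0.31). Cxcl9, a ligand of CXCR3, was at 134, 18.7 and 154 CPM against 33.5, 51.2, 41.1 and 34.2 CPM, so vehicle 2 was below every DPI library. Lgals3bp had a log2 ratio of -0.83 (SE 0.33).

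Of 30 tested type I interferon-stimulated genes, 1 was lower and 1 higher at an unadjusted p under 0.05, near the 3.73% and 2.14% of all genes tested, with a list median of -0.23. The median was -0.57 without DPI 1 and DPI 2, with 5 lower and 0 higher. The number lower was 5 without vehicle 2, 0 without vehicle 3, 3 without DPI 1 and 2 without DPI 3. Mx2, an antiviral GTPase, was at 19.5, 10.2 and 26.3 CPM with vehicle and at 7.05, 10.4, 5.7 and 3.28 CPM with DPI, and its unadjusted p was not under 0.05 without vehicle 3. Ifi44 had 3 counts in all vehicle libraries together and 89 in the DPI libraries, a ratio of pooled rates of 11.9 (exact 95% interval 3.93 to 58.7, counting error only), and DPI 3 was at 0.178 CPM. Its unadjusted p was under 0.05 in 1 of the 4 fits without 1 library in which it was tested. Ifi44 had enough counts only through the DPI libraries, so its call is no support. In the MHC class II list of 10 genes the invariant chain Cd74 was at 2326, 4027 and 2523 CPM against 3635, 5886, 4576 and 3681 CPM, a log2 ratio of 0.59 (SE 0.25) that kept an unadjusted p under 0.05 in 3 of 7 fits without 1 library. It was the 1 member called (2.14% of all genes tested were higher), the list's median was 0.02, and without DPI 1 and DPI 2 its unadjusted p was 0.106 from edgeR.

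Of 25 tested cell cycle genes, 21 had a positive log2 ratio, the median was 0.87, and 6 had an unadjusted p under 0.05, all higher (2.14% of all genes tested). The mean log2 CPM of the list was 1.7, 2.43 and 1.69 with vehicle and 3.33, 3.3, 2.98 and 2.55 with DPI, where the lowest DPI library was just above the highest vehicle library. The summed CPM overlapped, with DPI 4 (221 CPM) below vehicle 2 (243 CPM). Without DPI 1 and DPI 2 the median was 0.53 with 2 members past the unadjusted p, and the number was 9 without vehicle 2 and 10 without DPI 4. With each scaling tried the median lay between 0.87 and 0.92. Some called members had enough counts to be tested only through the DPI libraries. These were Ccnb1 (3, 1 and 6 counts with vehicle), Rrm2 (1, 20 and 3 counts) and Kif11 (mean 0.418 CPM with vehicle). For such members the filter favours the higher direction, which no scaling changes, so the number called and the median depend in part on the filter.

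Ccnb1, the mitotic cyclin B1, was at 0.649, 0.176 and 1.45 CPM with vehicle and at 15.4, 4.54, 6.06 and 4.05 CPM with DPI, a log2 ratio of 3.33 (SE 0.95). Rrm2, a subunit of the ribonucleotide reductase that supplies DNA precursors, was at 0.216, 3.53 and 0.724 CPM against 7.58, 7.45, 10.3 and 8.59 CPM, a log2 ratio of 2.46 (SE 0.85). Stmn1, the microtubule destabiliser stathmin, was at 4.97, 8.12 and 4.83 CPM against 18.5, 16.2, 24.8 and 10.2 CPM, a log2 ratio of 1.53 (SE 0.48). In each the groups did not overlap. The unadjusted p from edgeR without DPI 1 and DPI 2 was 0.0571 for Ccnb1, 0.0268 for Rrm2 and 0.0245 for Stmn1. Cdc20, Kif11 and Ube2c were the other 3, with log2 ratios of 2.19, 2.91 and 1.11. The proliferation marker Mki67 had 0.65 (SE 0.52) from edgeR, and Pcna, the sliding clamp of replication, had -0.23 (SE 0.30). These genes are expressed by any dividing cell, and their levels here are low.

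Of 20 genes of lipid-associated macrophages and lipid handling, 3 were lower at an unadjusted p under 0.05 and 0 higher (3.73% and 2.14% of all genes tested), with a list median of -0.12. Spp1, osteopontin, was at 36.5, 75.2 and 18.1 CPM with vehicle and at 14.8, 20.1, 12.1 and 13.9 CPM with DPI, a log2 ratio of -1.52 (SE 0.43). Lpl, the lipoprotein lipase, was at 118, 225 and 92.4 CPM against 72.3, 77.4, 76.2 and 71.5 CPM, a log2 ratio of -0.97 (SE 0.31). The 4 DPI libraries were within a narrow range for Lpl, and the spread lay with vehicle 2, without which neither Spp1 nor Lpl had an unadjusted p under 0.05. Cd36, a scavenger receptor for fatty acids and oxidised lipoprotein, was at 108, 85.6 and 79.4 CPM against 21.6, 36, 45.2 and 69.6 CPM, a log2 ratio of -1.08 (SE 0.36) that was -0.66 without DPI 1 and DPI 2 (unadjusted p = 0.0763 from edgeR). The list's number in the lower direction was 1 without vehicle 2, where 3 were higher, and 6 without DPI 4.

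In the cholesterol synthesis list of 19 tested genes, Srebf2, the transcription factor that controls the pathway, was at 80, 27.3 and 40.5 CPM with vehicle and at 17.5, 10.7, 36.7 and 21 CPM with DPI. Its groups overlapped, its log2 ratio was -1.19 (SE 0.44), and the unadjusted p was no longer under 0.05 without vehicle 1, or without DPI 1 and DPI 2 (log2 ratio -0.78, unadjusted p = 0.126 from edgeR). Mvk, mevalonate kinase, had 2 counts with vehicle and 127 with DPI, a ratio of pooled rates of 25.4 (exact 95% interval 6.89 to 212, counting error only). Its unadjusted p was 0.0505 without vehicle 2 by edgeR, and it was not tested without DPI 1, DPI 3 or DPI 4. Of the list, 1 gene was higher and 1 lower (2.14% and 3.73% of all genes tested), and 3 were lower without DPI 2. The higher one, Mvk, had enough counts to be tested only through the DPI libraries, so its call is no support. Sc4mol, an older symbol of Msmo1, was lower too (log2 ratio -1.03, unadjusted p = 0.0304 from edgeR) and is not in these numbers. The list's median log2 ratio was -0.12, but 0.03 with scaling by library size alone and 0.14 without DPI 1 and DPI 2.

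No gene of the glycolysis list (19 tested), the oxidative phosphorylation list (77 tested) or the fatty acid oxidation list (18 tested) had an unadjusted p under 0.05 by edgeR in either direction (5.87% of all genes tested). With 1 library left out, glycolysis had up to 1 higher and 2 lower (without DPI 4), oxidative phosphorylation 2 higher (without vehicle 2 or DPI 4) and fatty acid oxidation 2 higher (without vehicle 2). Their median log2 ratios were 0.13, 0.04 and 0.28, and without DPI 1 and DPI 2 they were -0.28, -0.12 and 0.12. Pkm, pyruvate kinase, was at 476, 841 and 518 CPM with vehicle and at 863, 863, 724 and 632 CPM with DPI. Its log2 ratio was 0.33 (SE 0.26), and its counts are of the gene, not of an isoform. Eno1, enolase, was at 337, 392 and 381 CPM against 561, 748, 388 and 274 CPM, and Ldha, lactate dehydrogenase A, at 307, 517 and 295 CPM against 388, 651, 354 and 243 CPM. In Eno1, DPI 1 and DPI 2 were above the vehicle libraries and DPI 4 below them, and its log2 ratio of 0.41 (SE 0.32) was -0.16 without DPI 1 and DPI 2.

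Gapdh was at 2133, 3241 and 2298 CPM with vehicle and at 2588, 3392, 2479 and 1747 CPM with DPI, a difference within the spread of either group. Hk2, the inducible hexokinase, was at 29.6, 22.6 and 43.9 CPM against 16.7, 33.7, 23.2 and 5.12 CPM, a log2 ratio of -0.72 (SE 0.51). Myc, a transcription factor that induces many glycolytic genes, was at 25.1, 58.6 and 26.1 CPM against 18.8, 12.6, 50.6 and 47 CPM. Eno1 and Gapdh have copies elsewhere in the genome, so their counts are uncertain.

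The receptor that DPI is held to act on was barely counted. Gpr3 was at 3.89, 0 and 0 CPM with vehicle and at 0, 0, 0.891 and 1.06 CPM with DPI, too low to be tested at this depth. Arrb2, β-arrestin2, was at 44.8, 46.6 and 53.3 CPM against 35.6, 47.3, 61.3 and 32.6 CPM, a log2 ratio of -0.13 (SE 0.31). None of the 23 tested genes of GPR3, arrestin and cAMP signalling had an unadjusted p under 0.05 by edgeR (5.87% of all genes tested), the smallest being that of Prkacb, a catalytic subunit of protein kinase A (log2 ratio 0.78, SE 0.38, unadjusted p = 0.0583). With 1 library left out, 1 was lower without vehicle 2, 1 higher without vehicle 3 and 2 lower without DPI 4. The list's median was -0.07, but 0.09 with scaling by library size alone and 0.12 without DPI 1 and DPI 2. Of the NADPH oxidase list, the flavoenzyme that DPI blocks and its partners, 8 genes were tested and 0 had an unadjusted p under 0.05 by edgeR (5.87% of all genes tested), where 1 was higher and 1 lower without vehicle 2. Cybb, its catalytic subunit, had a log2 ratio of 0.06 (SE 0.25) and Ncf1 of -0.09 (SE 0.31).

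Heat shock and protein folding genes gave single members. Hsp90aa1, the inducible HSP90, was at 479, 242 and 418 CPM with vehicle and at 161, 218, 188 and 191 CPM with DPI, a log2 ratio of -1.0 (SE 0.28). Bag3, a cochaperone of HSP70, was at 76.3, 47.1 and 46.3 CPM against 29.7, 37.6, 34.7 and 27.2 CPM, a log2 ratio of -0.81 (SE 0.30). The groups did not overlap in either, and the other 11 of the 13 tested chaperones had no unadjusted p under 0.05 (3.73% of all genes tested were lower), with a list median of -0.12 (-0.54 without DPI 1 and DPI 2). Bag3 lost its p under 0.05 without vehicle 1, which left 1 lower, and 2 members were higher without DPI 4. In the unfolded protein and integrated stress response list of 20 tested genes the 1 with an unadjusted p under 0.05 was Atf6, at 124, 52.4 and 115 CPM against 42.5, 52.8, 60.2 and 66.6 CPM, where vehicle 2 was below 3 of the DPI libraries. Atf6 kept its p under 0.05 in 3 of 7 fits without 1 library (those without vehicle 2, DPI 3 or DPI 4) and not without DPI 1 and DPI 2 (unadjusted p = 0.136 from edgeR). Of all genes tested, 3.73% were lower.

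Genes of alternative activation and scavenger receptors had a list median of 0.63 over 13 tested genes, which was 0.02 without DPI 1, 0.28 without DPI 2 and -0.20 without both. Mgl2, a galactose lectin, was at 4.11, 0.529 and 1.69 CPM with vehicle and at 10.3, 7.78, 6.77 and 4.44 CPM with DPI, and its relative Clec10a at 9.3, 7.41 and 23.4 CPM against 24.3, 36, 18.2 and 29.3 CPM. Their log2 ratios were 1.80 (SE 0.80) and 1.01 (SE 0.46), and each kept an unadjusted p under 0.05 in 2 of 7 fits without 1 library and not without DPI 1 and DPI 2 (0.229 and 0.151 from edgeR). They were the 2 members called (2.14% of all genes tested were higher). Mgl2, with 19, 3 and 7 counts in the vehicle libraries, had enough counts to be tested only through the DPI libraries.

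Among complement genes, C1qa was at 38.7, 40.4 and 19.3 CPM with vehicle and at 104, 118, 31.2 and 30.4 CPM with DPI, and C1qc at 39.3, 30.3 and 27.3 CPM against 92.7, 134, 27.2 and 30.4 CPM. They were the 2 higher of 12 tested (2.14% of all genes), and the number was 3 without vehicle 2 or DPI 4, 4 without DPI 3 and 0 when any of the other libraries was left out. The higher values lay in DPI 1 and DPI 2 alone, and without them the log2 ratios of 1.11 and 1.13 were -0.10 and -0.17. Cfb, factor B of the alternative pathway, was at 88.4, 56.8 and 80.6 CPM against 50.8, 56.4, 34.9 and 26.2 CPM, a log2 ratio of -0.84 (SE 0.32). It was the 1 member lower (3.73% of all genes tested) and kept its p under 0.05 in 4 of 7 fits without 1 library, not in those without vehicle 1, vehicle 3 or DPI 3.

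Of 12 KC genes counted, 7 were tested, and 2 were lower at an unadjusted p under 0.05 by edgeR (3.73% of all genes tested). The list had 3 log2 ratios above 0, those of Cd5l (1.28, SE 1.11), Clec1b (1.52, SE 1.17) and Cd207 (1.27, SE 1.30), and 4 below. Spic, a transcription factor of iron-recycling macrophages, was at 11.2, 9.53 and 7.96 CPM with vehicle and at 0.176, 3.56, 1.25 and 3.09 CPM with DPI. Slc40a1, the iron exporter ferroportin, was at 20.5, 17.6 and 20.5 CPM against 7.52, 6.48, 9.26 and 16.3 CPM. Every DPI library was below every vehicle library for each, with log2 ratios of -2.29 (SE 0.85) and -0.97 (SE 0.43). Spic kept an unadjusted p under 0.05 in 6 of 7 fits without 1 library, all but that without vehicle 1, and Slc40a1 in 1, that without DPI 4. Without DPI 1 and DPI 2 the log2 ratio of Slc40a1 was -0.61 (unadjusted p = 0.232 from edgeR), and that of Spic -2.11. The KC-restricted genes Clec4f, Timd4, Vsig4, Marco and Folr2 were too low to be tested.

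Prg2, the major basic protein of eosinophils, was at 0, 1.76 and 0 CPM with vehicle and at 76.2, 85.9, 0.356 and 45.2 CPM with DPI, and Epx, eosinophil peroxidase, at 0 in all vehicle libraries and at 8.87, 5.83, 0 and 9.75 CPM with DPI, at least 9.64-fold above the mean floor. DPI 3 was level with the vehicle libraries in each, and it also lacked counts of Ear1 and Ear6. Prg2, Epx, Ear1 and Ear6 had enough counts to be tested only through the DPI libraries, so no median of the list is given. Ear2, the most abundant of its markers with vehicle, was at a mean of 58.3 CPM with vehicle and 43.1 CPM with DPI (log2 ratio -0.44, SE 0.32), and Il5ra had a log2 ratio of -0.12 (SE 0.67). Without DPI 1 and DPI 2 only these 2 were tested, and Ear2 was lower at an unadjusted p under 0.05. Camp, Ngp and Ltf, proteins of neutrophil precursor granules, had log2 ratios of 1.03, 1.15 and 1.36 with an unadjusted p under 0.05 each by edgeR, while Retnlg, of mature neutrophils, was at 252, 324 and 410 CPM with vehicle and at 23.1, 51.5, 381 and 343 CPM with DPI. Over the 14 neutrophil markers tested 3 were higher (2.14% of all genes tested) and 0 lower at an unadjusted p under 0.05. The number higher was 0 without vehicle 1 and 0 without DPI 3, and 5 without DPI 1 and DPI 2, while 2 markers were lower without DPI 4. Ltf kept its p under 0.05 in 3 of 7 fits without 1 library, and Ngp and Camp each in 5.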

How the data were processed

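RNA of sorted liver macrophages was converted to cDNA and sequenced, by the methods. The authors deposited 1 table of raw gene counts for the series, made against mm10. The study's methods name bowtie2 and RSEM, whereas the submitters' processing notes name TopHat2 and edgeR, so the counter is uncertain, and strandedness is not given in the sources used here. Counts were used as deposited. The 7 HFD libraries were grouped by the labels, filtered with filterByExpr (10431 genes kept), scaled by TMM and tested with edgeR 4.0.16 (quasi-likelihood, R 4.3.3), with Benjamini-Hochberg adjustment over all genes tested. The threshold was an unadjusted p under 0.05 and at least 2-fold. Depth was 3534325 to 15585775 counts, the median SE of a log2 ratio was 0.49 and the biological coefficient of variation 0.524. Folds against a group at 0 use a floor of 3 counts per library, ratios with 1 to 3 counts have exact 95% intervals, and both cover counting error only.

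Genes were named by rule: the 12 smallest p values in each direction past the threshold with groups that did not overlap, up to 3 smallest p values under 0.05 in each pathway list, and genes of the study's question. Predicted genes were counted but not named, and a few more list members, chosen after their values were seen, are named beside a count. Members, lists and rules were chosen with earlier results of these data known. Alternatives were other scalings, filters and tests (DESeq2 1.42.0), all 9 libraries, a replicate block, thinning, removal of Rn45s and each library left out; leaving out DPI 1 and DPI 2 together was chosen after seeing the data. Mice of one number were not paired: deviations of same-numbered libraries from their group means correlated at 0.0329, 0.00546 and 0.0242. The columns of the normal diet libraries entered only the fit of 3 groups.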

Additional observations from a re-analysis of the deposited data

Results flagged for a closer look

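In 8 of 101 groups of 4 DPI libraries examined, 1 library stood apart from the other 3 by Dixon's test on log2 CPM, where chance gives about 1 in 20. Among the genes named for higher levels with DPI, Tspyl3 was at 2.03 CPM in DPI 4 and at 5.29 to 6.23 CPM in the others, and Prkag1 at 44.7 CPM in DPI 2 and at 66.4 to 69.4 CPM in the others. Fam160b1 was at 4.45 CPM in DPI 3 against 10.3 to 11 CPM, and Creld2 at 41.7 CPM in DPI 1 against 21.7 to 22.8 CPM. Of the genes named for lower levels, Cx3cl1 was at 0.324 CPM in DPI 2, which is 1 count, and at 0 in the others, where any single count would stand apart, so this case says nothing against the chance rate, and Nfkbiz was at 170 CPM in DPI 4 against 85 to 91 CPM. The mean log2 CPM of the MHC class II list was 7.27 in DPI 1 and 8.04 to 8.08 in the others, and that of the monocyte list was 9.53 in DPI 1 and 8.12 to 8.32 in the others.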

How the results depend on the processing

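The number of genes higher with DPI was 359 with no filter on low counts and 95 with at least 10 counts in every library, and it ranged from 95 to 345 with 1 library left out. The number lower was 140 with library size alone, 467 with no filter, 153 with all 9 libraries and 402 with the replicate block, and ranged from 133 to 436 with 1 library left out. An unadjusted p under 0.05 was found for 1073 genes with no filter and for 372 to 1039 with 1 library left out. Adjusted calls were 7 with DESeq2, 10 with the likelihood ratio test, 5 with the exact test, 5 with the replicate block, 1 without DPI 1 and DPI 2, and 0 to 2 with 1 library left out. The labels' replicate numbers do not pair the mice, and not every library correlated best with its own number, so the block is only an alternative fit. The cause of these shifts was not tested.

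Of 65 named genes tested, 10 changed the sign of their log2 ratio in at least 1 of 19 settings, and none of them had an adjusted call. Without DPI 1 and DPI 2 the log2 ratios were -0.17 for C1qc, -0.10 for C1qa, -0.32 for Ldha, -0.16 for Eno1, 0.41 for Myc, 0.15 for Il1b, -0.033 for Ccl9 and -0.084 for Pf4. Il6 was at -0.35 with the replicate block. Gapdh, near 0 in all, was at 0.019 with RLE factors, 0.063 with library size, 0.019 with DESeq2, 0.0016 with no filter, 0.0028 with at least 10 counts, 0.024 with 9 libraries, 0.15 with the block, 0.024 without Rn45s and 0.0027 thinned. With 1 library left out, Gapdh ranged from -0.17 to 0.24, Ldha from -0.19 to 0.48, Myc from -0.47 to 0.37, Il6 from -0.082 to 1.27 and Ccl9 from -0.13 to 0.19.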

Other observations

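Of the 10431 genes tested, 23 higher and 19 lower were past the threshold with all libraries and had groups that did not overlap. They were also past it in every fit without 1 library, and without DPI 1 and DPI 2. These fits share their libraries, so holding in each is no separate support. The genes below were chosen from the 23 and the 19 after their values were seen and belong to no list used here. Slc7a6, a transporter of cationic and neutral amino acids, had a mean of 28.7 CPM with vehicle and 11.4 CPM with DPI (log2 ratio -1.34, SE 0.38). Ptgir, the prostacyclin receptor, had means of 27.2 and 10.4 CPM (log2 ratio -1.40, SE 0.43), and Gatad2b, a subunit of the NuRD complex, 22.5 and 6.06 CPM (log2 ratio -1.90, SE 0.55). In the other direction, Iws1, a transcription elongation factor, had means of 9.07 CPM with vehicle and 26.1 CPM with DPI (log2 ratio 1.52, SE 0.44). Prkcz, the atypical protein kinase C zeta, had means of 1.61 and 10.3 CPM (log2 ratio 2.63, SE 0.83), and Rora, a nuclear receptor, 0.749 and 5.32 CPM (log2 ratio 2.83, SE 1.01). Prkcz and Rora had enough counts to be tested only through the DPI libraries. None of the genes named here had an adjusted p under 0.05 by edgeR with all 7 libraries, where 612 genes had an unadjusted p under 0.05.

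Erythroid markers summed to 2120 CPM in vehicle 2 and to 101 to 500 CPM in the other libraries. Clec4g, a lectin of sinusoidal endothelial cells, was at 0, 0 and 1.69 CPM with vehicle and at 55, 30.8, 0 and 5.02 CPM with DPI.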
